A study of Mus musculus with 8 samples.

Results

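The 10 genes examined here encode brakes on mitogen-activated protein kinase (MAPK) signalling: the dual-specificity phosphatases Dusp1, Dusp2, Dusp4, Dusp5, Dusp6 and Dusp16, the Sprouty genes Spry1 and Spry2, and the Spred genes Spred1 and Spred2. They were chosen by name from the 55357 genes in the table, with earlier results of these data known. Of the 10, 9 had enough reads to be among the 14514 genes tested. The cells were bone marrow-derived macrophages (BMDM) from C57BL/6J wild-type mice, grown from femur and tibia marrow in macrophage colony-stimulating factor (M-CSF). The 4 So(d18:1) libraries came from BMDM given 2 μM sphingosine, written So(d18:1), for 6 h, and the 4 control libraries from BMDM given the methanol in which it was dissolved for the same 6 h. No other agent is named for either group in the sample labels, whereas the text of the study places these cells under inflammatory stimulation. Poly(A) RNA was sequenced and read counts per gene were compared. The study describes its C57BL/6J wild-type mice as male and the 4 samples of each group as biologically independent. Neither it nor the labels say whether they came from separate mice or from separate cultures, so the p-values measure the spread between libraries at the level at which they were independent.

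M-CSF binds the receptor CSF1R and switches on Ras, which starts the kinase chain RAF, MEK and ERK. In macrophages this chain carries growth and survival signals and also acts downstream of inflammatory receptors. DUSP proteins remove phosphate from activated ERK, JNK or p38, whereas Sprouty and Spred proteins act further up, on Ras and RAF, and Spred proteins bring the Ras inhibitor neurofibromin to the membrane. Many of these genes are themselves switched on when ERK is active, which closes a negative feedback loop. Their mRNA levels are therefore often read alongside ERK signalling, although mRNA says nothing direct about the phosphorylation of a kinase.

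With So(d18:1), 4 of the 9 tested genes changed. Spred1, Dusp5 and Dusp4 fell and Dusp6 rose, by an adjusted p under 0.05 in edgeR's quasi-likelihood test with Benjamini-Hochberg adjustment over all tested genes. By that rule 8.94% of all tested genes were called, 3.87% as higher and 5.07% as lower. Of the 9 genes, 8 had a negative log2 fold change, with Dusp6 as the exception, as had 7127 of all 14514 tested genes. Of those 8, 5 were not called. The median of the 9 was -0.25 against 0.0036 over all tested genes. The threshold in the methods of the study, an unadjusted p under 0.05 with a fold change of at least 1.5, was met by 1 of the 9, Dusp4, and by 3.89% of all tested genes. The groups of 4 libraries did not overlap for 2 of the 9, Dusp5 and Spred1, and for 15% of all tested genes.

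Promoter sequence is shown for the 3 changed genes that the RefSeq table holds. Many genes of this family are switched on when ERK is active, which was not tested in these cells. The sequences are the 250 bases before the RefSeq gene start in build GRCm38.p6, read 5′ to 3′ on the strand of the gene. They lie at chr19:53528895-53529144 for Dusp5, chr10:99262981-99263230 for Dusp6 and chr2:117120821-117121070 for Spred1, all on the plus strand. Capitals mark the CArG box, to which serum response factor binds, and the core that hypoxia-inducible factors (HIF) recognise, searched as ACGTG or GCGTG on both strands.
Dusp5: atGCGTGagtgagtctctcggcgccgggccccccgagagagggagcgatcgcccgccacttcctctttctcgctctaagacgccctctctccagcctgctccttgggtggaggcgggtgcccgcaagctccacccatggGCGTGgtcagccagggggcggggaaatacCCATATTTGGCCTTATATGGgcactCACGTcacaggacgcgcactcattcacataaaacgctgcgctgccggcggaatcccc
Dusp6: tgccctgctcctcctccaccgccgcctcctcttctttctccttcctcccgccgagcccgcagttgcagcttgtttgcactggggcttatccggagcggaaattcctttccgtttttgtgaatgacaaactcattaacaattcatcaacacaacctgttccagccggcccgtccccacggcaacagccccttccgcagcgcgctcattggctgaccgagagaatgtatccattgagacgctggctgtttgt
Spred1: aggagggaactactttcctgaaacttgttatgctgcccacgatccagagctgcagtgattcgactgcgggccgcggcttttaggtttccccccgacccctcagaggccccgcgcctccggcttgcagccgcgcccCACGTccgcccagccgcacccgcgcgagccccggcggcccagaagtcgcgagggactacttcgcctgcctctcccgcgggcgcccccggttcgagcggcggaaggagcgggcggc

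The Dusp5 window held 2 CArG boxes side by side, CCATATTTGG from 82 to 73 bases and CCTTATATGG from 72 to 63 bases before the start. A CArG box occurred in 1.47% of the 32851 promoter windows in the table and, among the 9 genes matched to it, in Dusp5 alone. The core of the cAMP response element, TGACG on either strand, occurred in Dusp1, Dusp5, Dusp16 and Spred2 and in 17.8% of all windows. In Dusp5 this core overlapped a HIF core. The HIF core stood in the windows of Dusp1, Dusp2, Dusp5, Spry1, Spred1 and Spred2 and in 38.6% of all windows. Neither the ETS letters CCGGAA, in 12% of all windows, nor the AP-1 letters TGACTCA, in 4.46%, were found in these 9 windows on either strand. The GC content of the windows was 64% for Dusp5, 56.4% for Dusp6 and 70.8% for Spred1. These matches describe the letters only.

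Depth ranged from 17748397 to 26088609 counted reads per library (median 22926576), and scaling factors from 0.989 to 1.01. The macrophage markers Adgre1, Csf1r, Cd68, Fcgr1, Mertk, Itgam and Lyz2 were counted in every library and summed to 30120 to 32410 CPM (counts scaled to a common library total) in control and 26010 to 30870 CPM in So(d18:1) libraries, most of it Lyz2 (20090 to 22260 CPM and 16780 to 20720 CPM). Of these 7 markers, Mertk and Cd68 were called lower, with log2 fold changes of -0.38 and -0.22, and Itgam higher, at 0.18, all without overlap of the groups. The 7 markers of neutrophils and their precursors (Ly6g, Elane, Mpo, Camp, Ngp, S100a8 and S100a9) summed to 1416 to 1952 CPM in control and 1113 to 1267 CPM in So(d18:1) libraries. Of these 7, 6 were lower without overlap and 4 were called lower, and none was at 0 in any library. Control replicate 3 held the highest sum of both lists and So(d18:1) replicate 2 the lowest. In the macrophage list this order followed Lyz2, highest in control replicate 3 (22264 CPM) and lowest in So(d18:1) replicate 2 (16779 CPM). These libraries also stood at the ends of most members: control replicate 3 was the highest control in 7 of the 9 tested genes, and So(d18:1) replicate 2 the lowest So(d18:1) library in 7 of 9. The part of other cells in the results that follow was not tested, and in bulk RNA fewer cells of a type and less RNA per cell cannot be told apart.

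**Figure D1:**
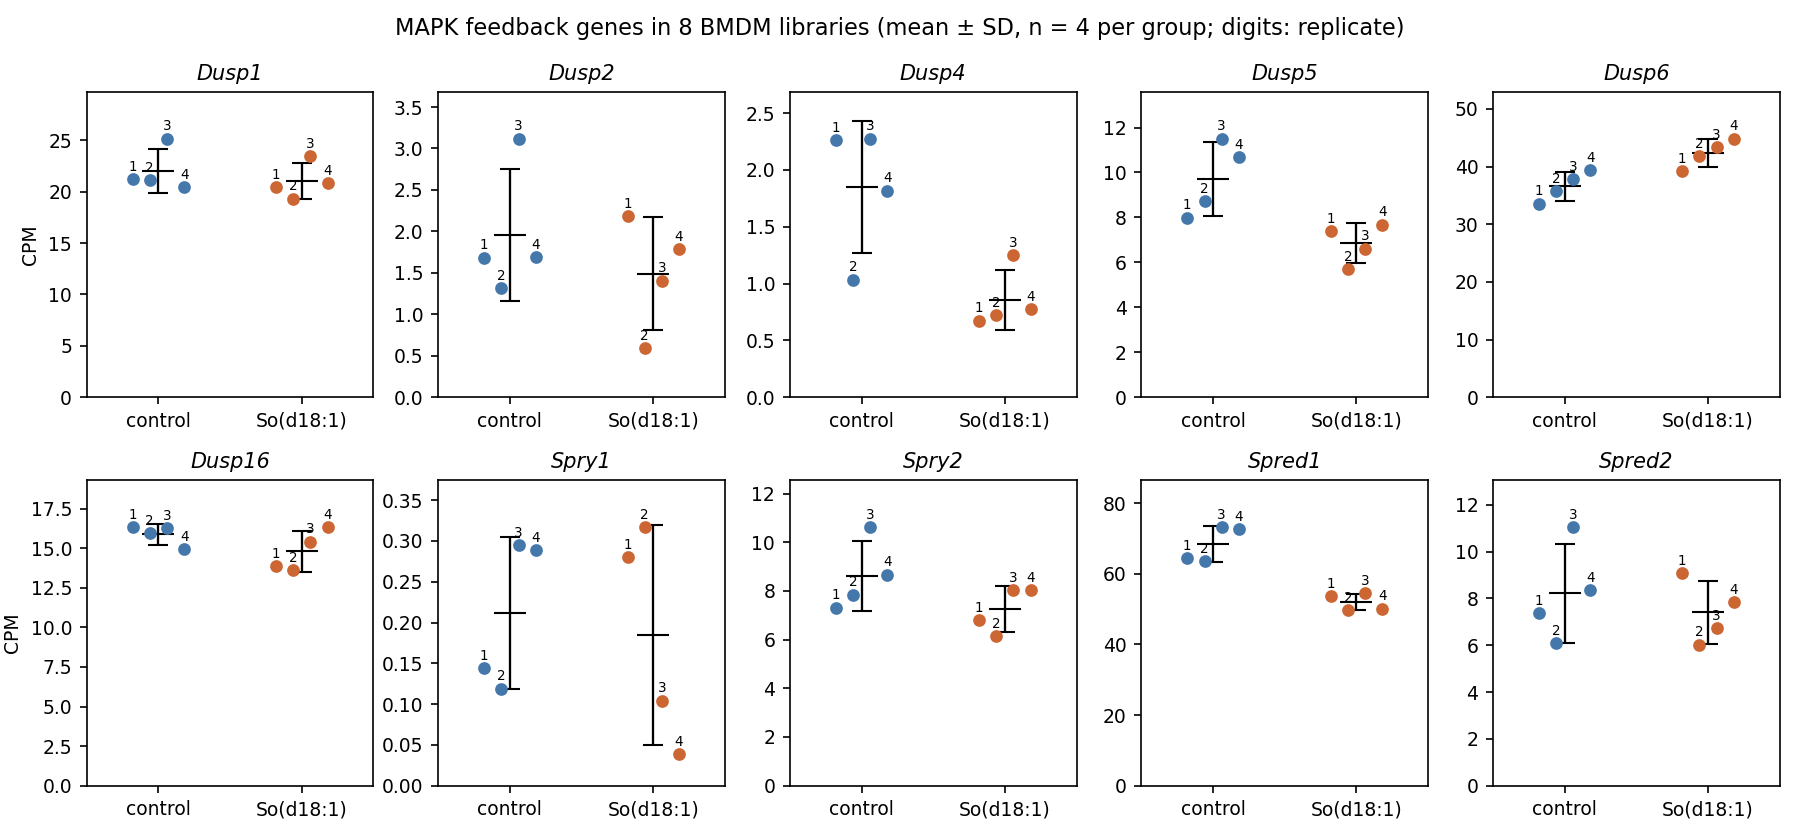
Level of each of the 10 genes in CPM (vertical axes from 0, each with its own scale) in the 4 control and 4 So(d18:1) libraries. Points are libraries with their replicate number, and bars are the mean ± SD. The groups are apart for Spred1 and Dusp5, while those of Dusp4 and Dusp6 cross by a single library on each side.

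Per transcript length, Dusp6 and Spred1 were the most abundant of the 10 in control BMDM. Levels between genes are given as FPKM, CPM divided by the gene length in kilobases in the deposited table. Mean control levels were 11.7 ± 0.809 FPKM for Dusp6 (SD, n = 4) and 10.1 ± 0.767 FPKM for Spred1 (SD, n = 4), and the libraries of these genes overlapped. Under So(d18:1) they no longer did, with Dusp6 at 12.5 to 14.3 FPKM and Spred1 at 7.34 to 8.02 FPKM. Dusp1 followed with a control mean of 6.64 FPKM, above the ranges of Spry2 (4.13 FPKM) and Dusp5 (3.93 FPKM), which overlapped each other. Dusp16 (2.04 FPKM), Spred2 (1.78 FPKM), Dusp2 (0.975 FPKM) and Dusp4 (0.674 FPKM) formed a chain in which each overlapped the next. Spry1 was last at 0.0729 FPKM. By the mean of all 8 libraries, 73.8% of tested genes lay below Dusp6 and 13.1% below Dusp4.

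**Figure D2:**
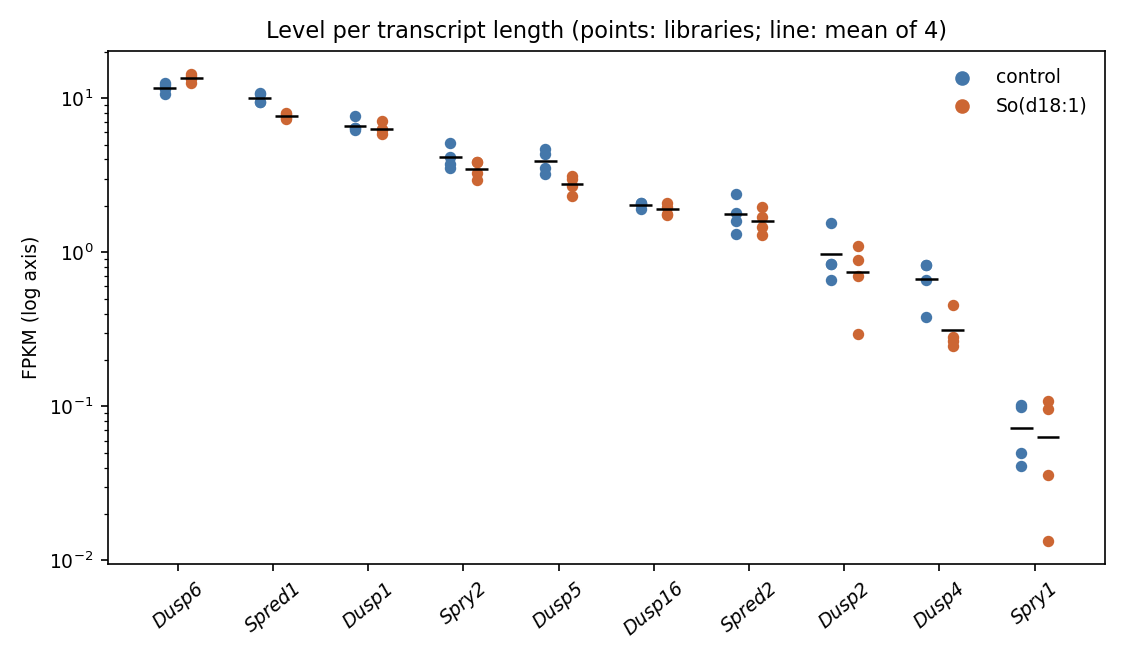
Level per transcript length in FPKM (logarithmic vertical axis) of the 10 genes, ordered by their control mean, in control and So(d18:1) libraries. Points are libraries and lines are means of 4. Dusp6 (11.7 FPKM) and Spred1 (10.1 FPKM) lead in control and lie farther apart with So(d18:1), and Spry1 (0.0729 FPKM) lies below all the others.

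Dusp6, a cytoplasmic phosphatase selective for ERK, was the only member called as higher. It lies on chromosome 10 from 99263231 to 99267489 (GRCm38, plus strand) and was counted at 33.5, 35.7, 37.9 and 39.33 CPM in control replicates 1 to 4 and at 39.26, 41.8, 43.4 and 44.9 CPM in So(d18:1) replicates 1 to 4. Of the So(d18:1) libraries, 3 were above every control, and the groups met only at control replicate 4 and So(d18:1) replicate 1. The means were 36.6 ± 2.53 CPM and 42.3 ± 2.40 CPM (SD, n = 4), a 1.16-fold rise. The log2 fold change was 0.21 ± 0.062 (SE), with a quasi-likelihood adjusted p of 0.0380 in edgeR, and the two-sided exact permutation test of the 4 against 4 libraries gave p = 0.0571, where the smallest it can give is 0.0286. The rise is small and close to the threshold. It was called in 3 of the 8 fits that left out a library and lost without control replicates 1 or 2 and without So(d18:1) replicates 2, 3 or 4, where its log2 fold change stayed between 0.17 and 0.22.

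Dusp5, the nuclear phosphatase that acts on ERK and carries the paired CArG boxes shown above, fell. It lies on chromosome 19 from 53529109 to 53542431 (GRCm38, plus strand). Its level was 7.99, 8.72, 11.5 and 10.7 CPM in control replicates 1 to 4 and 7.40, 5.70, 6.61 and 7.68 CPM in So(d18:1) replicates 1 to 4. Every So(d18:1) library was below every control, though the gap between So(d18:1) replicate 4 and control replicate 1 was small. Mean levels were 9.73 ± 1.65 CPM and 6.85 ± 0.890 CPM (SD, n = 4), a ratio of 0.704. Its log2 fold change was -0.51 ± 0.13 (SE), with a quasi-likelihood adjusted p of 0.0165 in edgeR and an exact permutation p of 0.0286. The call was lost without control replicate 3 (adjusted p = 0.0612), control replicate 4 (0.0624) or So(d18:1) replicate 2 (0.0736) in edgeR, while the log2 fold change stayed between -0.58 and -0.41 over the 8 fits. The antisense gene AC137853.2 shares 20.5% of the 50-base words of Dusp5 and was counted 0 to 2 times per library.

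Dusp4, a nuclear phosphatase of ERK and other MAPKs, had the largest fold change of the 9 and the fewest reads of those called, 12 to 54 per library. This gene lies on chromosome 8 from 34807297 to 34819894 (GRCm38, plus strand). Control replicates 1 to 4 held 2.26, 1.035, 2.28 and 1.82 CPM and So(d18:1) replicates 1 to 4 held 0.673, 0.724, 1.25 and 0.776 CPM. In 3 So(d18:1) libraries the level was below every control, and So(d18:1) replicate 3 was above control replicate 2. From 1.85 ± 0.582 CPM to 0.856 ± 0.266 CPM (SD, n = 4), the level dropped to 0.465 of control. This is a log2 fold change of -1.10 ± 0.29 (SE), with a quasi-likelihood adjusted p of 0.0194 in edgeR, against an exact permutation p of 0.0571. Leaving out control replicates 1 or 3 or So(d18:1) replicates 1, 2 or 4 took the adjusted p in edgeR to between 0.0565 and 0.0668, with a log2 fold change of -1.06 to -0.98.

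Dusp1 and Dusp2, which encode nuclear phosphatases induced early after stimulation, were not called. Dusp1 (chromosome 17, 26505590 to 26562128, minus strand) was at 21.2, 21.1, 25.2 and 20.4 CPM in control against 20.5, 19.3, 23.4 and 20.8 CPM with So(d18:1), and the groups overlapped widely. Its log2 fold change was -0.07 with a 95% interval of -0.24 to 0.10 (edgeR quasi-likelihood test, adjusted p = 0.676). Exons of Dusp1 overlap Ergic1 on the other strand, which took 679 to 975 counts per library, and the strand setting of the counting is not given in the sources used here. Dusp2 (chromosome 2, 127336159 to 127338376, plus strand) had 13 to 74 counts per library. It was at 1.68, 1.31, 3.12 and 1.69 CPM in control against 2.19, 0.588, 1.41 and 1.79 CPM with So(d18:1). The highest control was replicate 3 and the lowest So(d18:1) library replicate 2, with the other 6 libraries intermixed. Its log2 fold change of -0.40 had a wide interval, -1.15 to 0.35 (edgeR quasi-likelihood test, adjusted p = 0.545), so that a fall as large as that of Dusp4 could not be told from none at this depth.

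Dusp16, a phosphatase of JNK and p38, was not called. This gene (chromosome 6, 134715468 to 134792625, minus strand) was counted at 16.3, 16.0, 16.3 and 14.9 CPM in control replicates 1 to 4 and at 13.9, 13.6, 15.4 and 16.3 CPM in So(d18:1) replicates 1 to 4. So(d18:1) replicates 1 and 2 were below every control and replicate 4 was above them all. The log2 fold change was -0.10 with an interval of -0.27 to 0.08 (edgeR quasi-likelihood test, adjusted p = 0.532).

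With Dusp6 higher and Dusp4 and Dusp5 lower, the makeup of the summed mRNA of the 6 DUSP members differed between the groups while the sum stayed close. Other DUSP genes are not in this sum, among them Dusp3 (control mean 25.2 FPKM) and Dusp7 (control mean 19.9 FPKM), neither of them called. The 6 DUSP members together reached 25.9 ± 2.19 FPKM in control against 25.6 ± 1.54 FPKM with So(d18:1) (SD, n = 4). Dusp6 made up 41.9% to 47.4% of that sum in control libraries and 50.5% to 56.1% with So(d18:1). The share of Dusp5 was 13.4% to 16.3% in control and 9.69% to 12.1% in So(d18:1) libraries. Dusp1 took 23.3% to 26.6% and 23.3% to 26.5%, and Dusp4 only 1.55% to 3.42% and 0.989% to 1.71%. The ranges were apart for Dusp6 and Dusp5, overlapped for Dusp4 and were nearly the same for Dusp1. These shares follow from the levels above, so no test is given.

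Spred1 showed the most stable change of the members. It encodes a membrane-bound inhibitor of the step from Ras to RAF and a partner of neurofibromin, and lies on chromosome 2 from 117121374 to 117182279 (GRCm38, plus strand). Control replicates 1 to 4 had 64.3, 63.6, 73.2 and 72.7 CPM, and So(d18:1) replicates 1 to 4 had 53.7, 49.8, 54.4 and 50.1 CPM. All So(d18:1) libraries lay below all controls, with a gap larger than the range of the So(d18:1) group. The mean fell from 68.5 ± 5.20 CPM to 52.0 ± 2.39 CPM (SD, n = 4), or to 0.759 of control. The log2 fold change was -0.40 ± 0.057 (SE), with a quasi-likelihood adjusted p of 8.7e-05 in edgeR, and the exact permutation p was the smallest possible, 0.0286. With any single library left out it stayed called, with a log2 fold change of -0.43 to -0.36 and an adjusted p in edgeR of at most 0.000958. Between 957 and 1761 reads per library supported these values, and no other gene shares its sequence or overlaps its exons in the annotation.

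Spred2, with the same kind of action, did not pass the test. It lies on chromosome 11 from 19924375 to 20024026 (GRCm38, plus strand) and was at 7.36, 6.09, 11.0 and 8.34 CPM in control against 9.09, 6.02, 6.72 and 7.84 CPM with So(d18:1). The groups overlapped over most of their range. The log2 fold change was -0.15, with an interval of -0.52 to 0.22 (edgeR quasi-likelihood test, adjusted p = 0.656). This interval reaches the change seen in Spred1, so the data do not show that Spred1 and Spred2 behaved differently.

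Spry2, which encodes an inhibitor of receptor tyrosine kinase signalling to ERK, lies on chromosome 14 from 105891947 to 105896819 (GRCm38, minus strand). Its control replicates 1 to 4 were at 7.31, 7.84, 10.6 and 8.67 CPM and its So(d18:1) replicates 1 to 4 at 6.79, 6.15, 8.02 and 8.03 CPM. So(d18:1) replicates 1 and 2 were below every control, and replicates 3 and 4 lay within the control range. The log2 fold change of -0.25, with an interval of -0.52 to 0.02, did not pass (edgeR quasi-likelihood test, adjusted p = 0.253). Spry1 (chromosome 3, 37639947 to 37644598, plus strand) was barely detected, with 3, 3, 7 and 7 counts in control replicates 1 to 4 and 5, 7, 2 and 1 counts in So(d18:1) replicates 1 to 4. It was not tested, and counts this low allow no comparison.

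The 4 Sprouty and Spred genes together summed to 16.1 ± 1.86 FPKM in control against 12.8 ± 0.759 FPKM with So(d18:1) (SD, n = 4). Every So(d18:1) sum, from 11.7 to 13.4 FPKM, was below every control sum, from 14.5 to 18.4 FPKM. Spred1 supplied 58.7% to 64.8% of the sum in control and 57.1% to 62.7% in So(d18:1) libraries, so the ranges of its share overlapped. Of the 4 genes, only Spred1 was called. The groups overlapped for Spry2 and Spred2, and Spry1 was not tested, so the lower sum does not show a fall across the family.

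**Figure D3:**
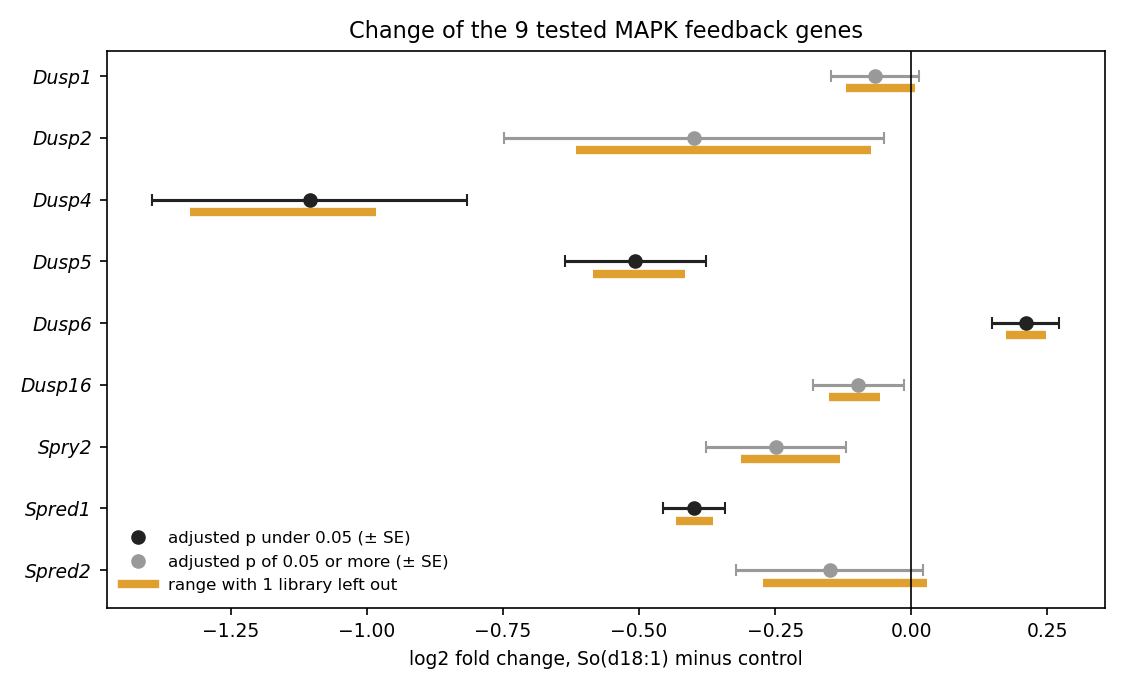
Log2 fold change of the 9 tested genes, So(d18:1) minus control. Points with bars are the estimate ± SE from the fit of all 8 libraries, dark where the adjusted p is under 0.05, and orange lines span the values with 1 library left out. Spred1, Dusp5 and Dusp4 stay below 0 and Dusp6 stays above 0 throughout, whereas the ranges of Dusp1 and Spred2 cross 0.

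In the deviations from the mean of all 8 libraries, which include the difference between the groups, control replicate 3 was above the mean for 8 of the 9 genes, by up to 0.94 on the log2 scale for Dusp2. So(d18:1) replicate 2 was below the mean for 8 of the 9, with Dusp2 at -1.30, and Dusp6 went the other way in both libraries. When both were left out, an alternative chosen after seeing the data that shrinks most differences by construction, 1 of the 9 members was still called, Spred1, with a log2 fold change of -0.34 (edgeR quasi-likelihood test, adjusted p = 0.00177). Dusp4 was then at -0.91 (adjusted p = 0.144), Dusp5 at -0.34 (adjusted p = 0.179) and Dusp6 at 0.23 (adjusted p = 0.0743), each with 3 libraries per group in edgeR. The neutrophil marker sum had the same highest and lowest libraries, and its part in the falls of Dusp4, Dusp5 and Spred1 was not tested.

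**Figure D4:**
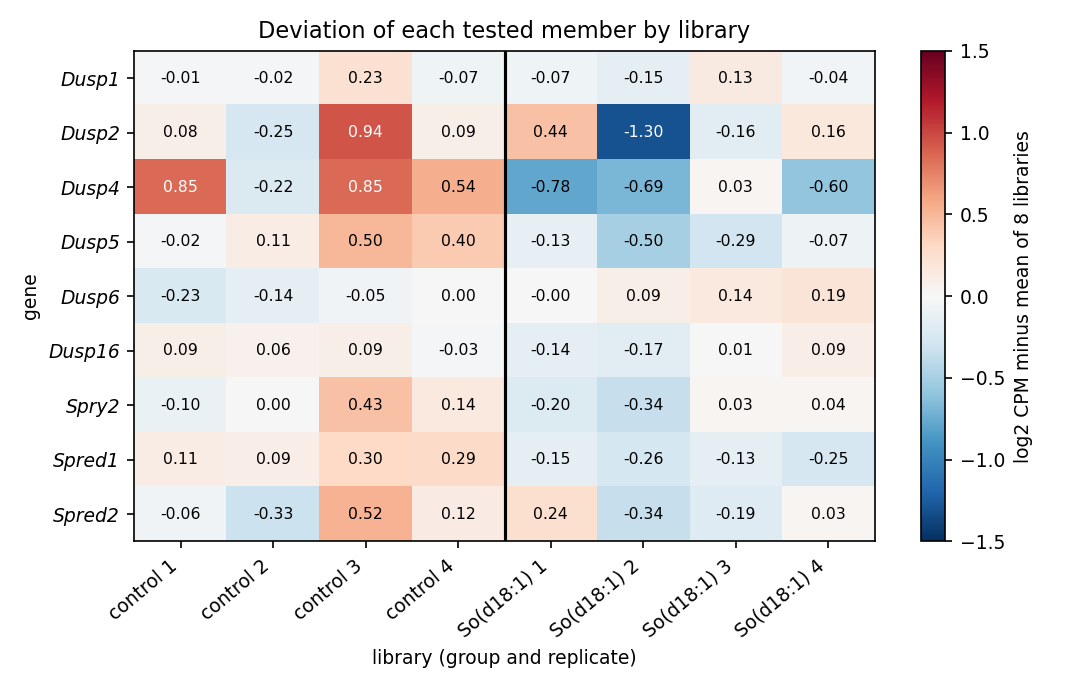
Deviation of each tested gene (rows) in each library (columns) from its mean over the 8 libraries, in log2 CPM, from blue (lower) to red (higher). A line separates the 4 control from the 4 So(d18:1) libraries. Control replicate 3 and So(d18:1) replicate 2 hold the strongest colours for Dusp2, at 0.94 and -1.30, while Spred1 is positive in every control and negative in every So(d18:1) library.

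Further genes listed beside these families gave no call. Of 11 genes listed as MAPK phosphatases, which are not all DUSP genes and not the whole family, 8 were tested. None of the 8 was called by edgeR, and their median log2 fold change was 0.06. Dusp7, another cytoplasmic ERK phosphatase, was at 66.7 ± 4.15 CPM in control against 67.5 ± 2.39 CPM with So(d18:1) (SD, n = 4), which differ by 0.02 on the log2 scale. Dusp10, which acts on JNK and p38, was near 1.49 ± 0.288 CPM and 1.78 ± 0.288 CPM (SD, n = 4). Spred3 was at 20.7 ± 1.39 CPM and 20.2 ± 3.87 CPM (SD, n = 4), and Spry4 had no count in any control library.

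Upstream of the feedback genes, the receptor of M-CSF itself was not called. Csf1r was at 6234 ± 98.2 CPM in control against 5986 ± 298 CPM with So(d18:1) (SD, n = 4), with a log2 fold change of -0.06 (edgeR quasi-likelihood test, adjusted p = 0.464). Of the 24 receptors and adaptors above Ras, all tested, 2 rose and 1 fell, with a median of -0.01. By the same test 3.87% of all tested genes rose and 5.07% fell. Csf2rb, the shared receptor chain for GM-CSF, IL-3 and IL-5, rose from 765 ± 19.1 CPM to 1073 ± 40.3 CPM (SD, n = 4, log2 fold change 0.49), although 12.3% of its 50-base words occur in other genes, Csf2rb2 among them. The adaptor gene Gab1 rose from 108 ± 9.22 CPM to 132 ± 3.36 CPM, and Dok2, which encodes an adaptor that restrains Ras signalling, fell from 43.1 ± 1.80 CPM to 35.8 ± 1.62 CPM (SD, n = 4).

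Of the 19 Ras GTPases and their regulators, 1 rose and 4 fell, and the median log2 fold change was -0.14. Over all tested genes 3.87% rose and 5.07% fell. Nras was at 156 ± 3.81 CPM and 159 ± 4.50 CPM (SD, n = 4) and was not called. Rasa1, a GTPase-activating protein that turns Ras off, fell from 201 ± 9.01 CPM to 148 ± 6.40 CPM (SD, n = 4, log2 fold change -0.44). Rasgrp3 and Rasgrp2, exchange factors that turn Ras and Rap GTPases on, fell with log2 fold changes of -0.61 and -0.40. Both activators and an inactivator of Ras were thus among the genes that fell. Rras rose from 34.5 ± 1.08 CPM to 42.0 ± 3.90 CPM (SD, n = 4). Nf1, which encodes neurofibromin, the partner of Spred1, was at 93.1 ± 1.68 CPM and 88.8 ± 6.15 CPM (SD, n = 4), with -0.07 as its log2 fold change (edgeR quasi-likelihood test, adjusted p = 0.433).

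In the RAF, MEK and ERK tier, 2 of 19 tested genes rose and none fell, with a median of 0.01. The share called over all tested genes was 8.94%. The genes called were Rps6ka5, which encodes a nuclear kinase activated by ERK and p38 (37.8 ± 1.87 CPM to 47.9 ± 1.62 CPM, SD, n = 4), and Mknk2, which encodes a kinase of the translation factor eIF4E (251 ± 7.58 CPM to 293 ± 15.4 CPM, SD, n = 4). Mapk3, which encodes an ERK kinase, had a log2 fold change of 0.10 (adjusted p = 0.133 in edgeR's quasi-likelihood test) and was not called. Its groups did not overlap, with every So(d18:1) library above every control.

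Genes known to follow ERK activity had a median log2 fold change of -0.24 over the 18 tested, close to that of the feedback genes. Both lists were chosen with earlier results of these data known, and the likeness of their medians was not tested. Of the 18, 13 had a negative and 5 a positive log2 fold change. By the test 3 fell and 1 rose, where 8.94% of all tested genes were called. Ccnd1, which encodes cyclin D1, was at 8.71, 7.84, 10.2 and 8.91 CPM in control replicates 1 to 4 and 6.62, 4.66, 6.56 and 4.93 CPM in So(d18:1) replicates 1 to 4, without overlap and with a log2 fold change of -0.66 (edgeR quasi-likelihood test, adjusted p = 0.00257). It shares 21.6% of its 50-base words with the antisense gene LTO1. Myc, a growth regulator, was at 4.14, 3.38, 6.75 and 4.54 CPM in control against 2.58, 2.04, 3.23 and 2.87 CPM with So(d18:1), also without overlap. Its log2 fold change was -0.81 (edgeR quasi-likelihood test, adjusted p = 0.0165), and Egr3, an early response transcription factor, fell by 0.49 on the log2 scale (adjusted p = 0.0373) with groups that overlapped. The call of Myc was lost without control replicate 3 or So(d18:1) replicates 1 or 2 (adjusted p up to 0.0641 in edgeR). That of Egr3 was lost without control replicates 1, 2 or 3 or So(d18:1) replicates 2 or 4 (up to 0.129).

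The only called gene of this list that rose was Ier3, an early response gene that also answers to stress and inflammatory signals. It was at 77.2, 83.7, 75.2 and 82.5 CPM in control replicates 1 to 4 and at 120, 123, 112 and 129 CPM in So(d18:1) replicates 1 to 4, so all So(d18:1) libraries were above all controls. Its log2 fold change was 0.60 ± 0.051 (SE), with a quasi-likelihood adjusted p of 1.2e-07 in edgeR. Fos, a classic early target of ERK, was at 155 ± 18.1 CPM and 159 ± 8.87 CPM (SD, n = 4) and was not called. Other targets had large but scattered changes that did not pass: Etv5 had a log2 fold change of -0.99 ± 0.34 (SE) and Egr1 of -0.70 ± 0.25 (SE). Without the robust dispersion of edgeR both passed (adjusted p = 0.0130 and 0.0225), as they did with limma-voom (0.0129 and 0.0331). Most settings gave no call. Over the 10 alternatives to scaling, filter, test and block, Etv5 passed in 4 and Egr1 in 3. With 1 library left out, Etv5 passed in 0 of 8 fits and Egr1 in 1 of 8. Of the reads of Etv5, those in the 24.5% of 50-base words shared with Gm4798 cannot be assigned with certainty. Phlda1 was near 0.654 ± 0.109 CPM and 0.539 ± 0.190 CPM (SD, n = 4).

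**Figure D5:**
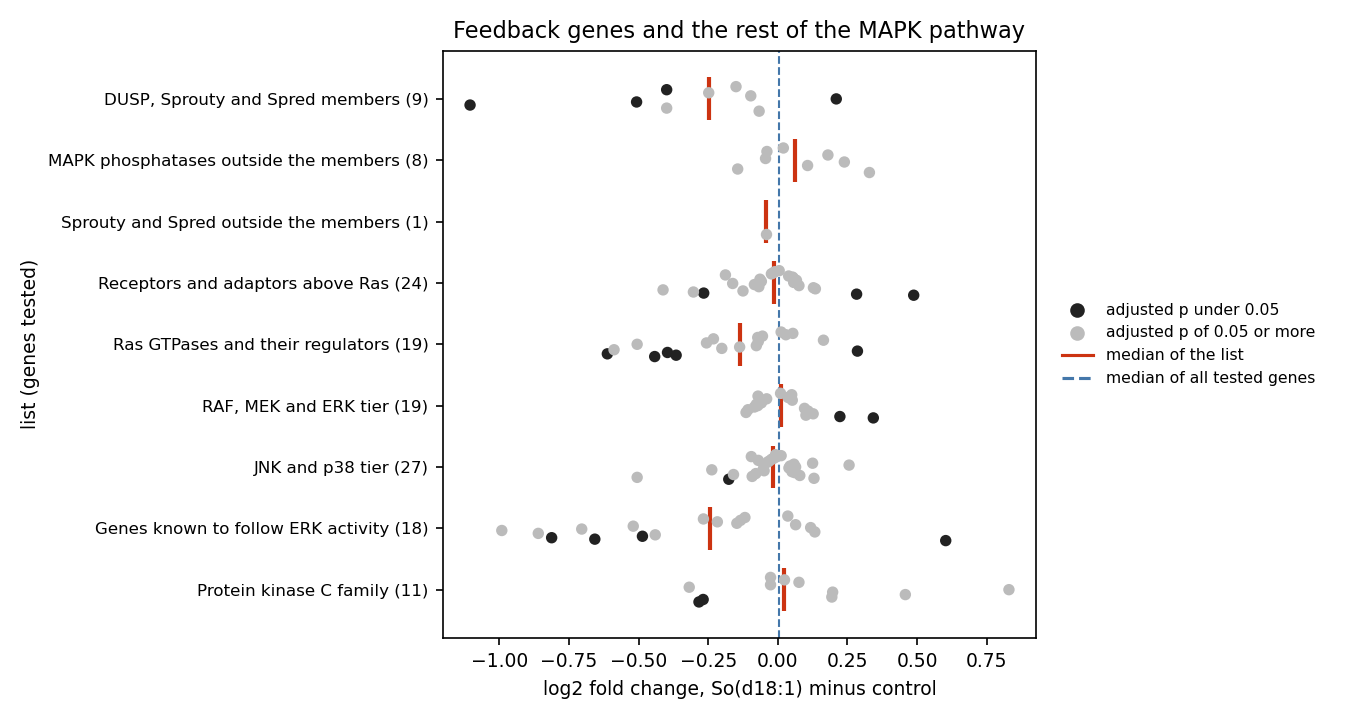
Log2 fold change, So(d18:1) minus control, of every tested gene of the feedback members and of 8 other lists of the MAPK pathway, with the number tested in brackets. Dark points have an adjusted p under 0.05, red lines are list medians and the dashed line is the median of all tested genes (0.0036). The members (median -0.25) and the genes known to follow ERK activity (median -0.24) lie lowest, and the RAF, MEK and ERK tier is centred near 0. All lists were chosen with earlier results of these data known.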

How the data were processed

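Reads were trimmed with Trim Galore 0.6.7, aligned to mm10 with HISAT2 2.2.1 and counted with featureCounts 2.0.1, per the labels. The authors deposited whole-number counts per Ensembl gene, not normalized, with a gene length. Handling of strand and of multiply mapped reads is not given in the sources used here. Counts were filtered with filterByExpr, scaled by TMM and compared between groups with the robust quasi-likelihood test of edgeR 4.0.16 (R 4.3.3), with Benjamini-Hochberg adjustment over 14514 genes. Standard errors are the absolute log2 fold change over the square root of F, and 95% intervals use the degrees of freedom of the fit. Log2 CPM used a prior count of 2. Symbols and positions came from GENCODE release 21, and sequence shared between genes was measured with 50-base words. With 4 libraries per group, their number limits precision, as does counting error for genes with few reads. The script was tested on simulated data.

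The members, the 8 other pathway lists and the marker lists were chosen with earlier results of these data known. All 10 members were named, and from each other list the genes with an adjusted p under 0.05 (at most 6, by p) and the core genes of each list. Some genes that this rule names are not reported here. Promoter windows were those of RefSeq. Alternatives were other scalings, filters, tests (DESeq2 1.42.0, limma 3.58.1), a replicate block and each library left out. Same-numbered libraries did not deviate together (correlations -0.0035 to 0.100), so numbers were not treated as pairs. Figures were drawn with matplotlib 3.10.9.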

Additional observations from a re-analysis of the deposited data

How the results depend on the processing

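The 4 calls among the members held under all 10 alternatives to scaling, filter, test and block. With 1 library left out the count of called members was 1 to 3, lowest without So(d18:1) replicate 2, and 2 without control replicates 1 or 3 or So(d18:1) replicate 4. With control replicate 3 and So(d18:1) replicate 2 both left out it was 1. Fewer libraries also lower the power of the test, and the share of all tested genes called in these fits is not given here. Members whose groups did not overlap numbered 2 to 4 with 1 library left out, reaching 4 without control replicate 2 or So(d18:1) replicate 3, where 20.6% and 20.5% of all tested genes did not overlap (17.9% to 20.6% over these fits). Called genes of the other pathway lists went from 17 to 24 with the replicate block, under which 4 members were called and 1784 of all genes against 1298. Of 8 libraries, 3 correlated best with one of their own number, and the block changed no member's call. The range of log2 fold changes with 1 library left out crossed 0 for Dusp1 (-0.119 to 0.006), Spred2 (-0.272 to 0.028), Dusp7 (-0.011 to 0.059), Spred3 (-0.136 to 0.080), Mapk8 (-0.061 to 0.021), Fos (-0.015 to 0.106) and Prkcd (-0.045 to 0.003). Without control replicate 3 and So(d18:1) replicate 2, Dusp1 was at 0.044, Dusp2 at 0.197 and Spred2 at 0.117. The cause of these changes was not tested. Of 755 fits of 42 genes, 718 kept direction and side of the threshold. Depth limits Dusp2, Dusp4 and Spry1 most.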

Other observations

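The stress-activated branch of the pathway, on which Dusp1, Dusp10 and Dusp16 act, gave 1 call among 27 tested genes of the JNK and p38 tier. Over all tested genes 8.94% were called. The median log2 fold change of the tier was -0.02. Mapkapk3, which encodes a kinase activated by p38, fell from 159 ± 5.07 CPM in control to 140 ± 4.20 CPM in So(d18:1) libraries (SD, n = 4), a log2 fold change of -0.18 (edgeR quasi-likelihood test, adjusted p = 0.0116). Mapk14, which encodes the main p38 kinase, was at 302 ± 20.7 CPM and 315 ± 11.2 CPM (SD, n = 4), and Mapk8, a JNK gene, at 23.8 ± 1.80 CPM and 23.2 ± 0.739 CPM (SD, n = 4), and neither was called.

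Protein kinase C activates the ERK chain through Ras and RAF, and sphingosine is known in biochemistry as an inhibitor of these kinases. Of 11 tested genes in this list, which also holds protein kinase D genes, none rose and 2 fell by the test. The median log2 fold change was 0.02, and 8.94% of all tested genes were called. Prkcb fell from 127 ± 6.10 CPM to 105 ± 8.07 CPM and Prkch from 53.7 ± 1.52 CPM to 44.6 ± 1.91 CPM (SD, n = 4), with log2 fold changes of -0.28 and -0.27 and adjusted p of 0.00153 and 0.00195 in edgeR's quasi-likelihood test. Prkcd, the most counted of the 4 named here, was at 492 ± 9.45 CPM and 483 ± 20.8 CPM (SD, n = 4) and Prkca at 5.19 ± 0.608 CPM and 5.46 ± 0.724 CPM (SD, n = 4), and neither was called.

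Markers of cells other than macrophages and neutrophils were low. Summed levels in control and So(d18:1) libraries were 5.14 to 7.17 CPM and 5.98 to 7.52 CPM for dendritic cell markers and 6.57 to 10.3 CPM and 5.98 to 8.46 CPM for stromal markers. Markers of T, B and NK cells summed to 1.40 to 2.07 CPM in control and 0.362 to 1.40 CPM in So(d18:1) libraries, and those of mast cells and of erythroid cells to at most 0.729 CPM and 0.722 CPM.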
